A study of Homo sapiens with 9 samples.

Results

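The regions described here are the 844 stretches of accessible chromatin that carried a peak in both lists that the labels assign to NS cells (NS DMSO and NS rottlerin), and in neither of the lists labelled SW. They were chosen by merging the 4 peak lists, joining peaks that overlapped or touched, and keeping the merged regions with that combination of lists, and they are called NS-shared regions below. They made up 844 of 40703 merged regions on chromosomes 1 to 22, X and Y (2.07%), and none of the 28 merged regions on other contigs met the rule. The presence and absence of the peaks are what selected the regions, so these are given as a description and not as a result.

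The study followed Jurkat cells, a human leukaemic CD4+ T cell line (clone E6-1), through a model of T cell memory by FAIRE-seq, in which formaldehyde-fixed DNA that is free of nucleosomes is recovered and sequenced. NS cells were not stimulated. SW cells had been stimulated with PMA and ionomycin for 4 h, by the labels, and then washed and rested for 1 day. Before this, cells received DMSO, the vehicle, or 15 µM rottlerin, a compound used to inhibit protein kinase C, for 1 h. All lists therefore came from the same line, from 1 library per list and with 1 total input library as the shared control of the peak calling. Of the 9 samples, 4 had peak lists (NS DMSO, NS rottlerin, SW DMSO and SW rottlerin), and the other 5 were not analysed here. With 1 library per list there was no replicate error and no test was made between lists. Intervals given for shares are 95% Wilson intervals, those for site densities are exact Poisson intervals, and both cover counting error only. The files give no read counts, so the depth behind each list is unknown.

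The lists held 18977 peaks (NS DMSO), 23835 peaks (NS rottlerin), 20132 peaks (SW DMSO) and 30409 peaks (SW rottlerin). The names of the lists may not match the state of the cells. The study's methods describe peak calling on its DMSO samples, whereas the labels attach a pair of the lists to rottlerin. The number of merged regions and the number on other contigs also equal those of the study's pool of peaks from its NS, ST, SW and RS samples treated with DMSO, where ST is stimulated and RS restimulated. The lists labelled NS rottlerin and SW rottlerin may therefore be lists of other DMSO-treated states, and which state each would be is not given by the labels. The NS DMSO list shared 47.3% of its union with the NS rottlerin list and 47.5% with the SW DMSO list, so the lists that share the NS label were not closer to each other by this measure. Of 38 genes known to be induced by T cell activation, 12 had a peak within 1 kb of the TSS in the NS DMSO list, 15 in the NS rottlerin list, 20 in the SW DMSO list and 27 in the SW rottlerin list. The SW rottlerin list was also the longest. In the same order of lists, such peaks occurred at 15, 18, 17 and 20 of 25 T cell receptor signalling genes. They occurred at 11, 12, 10 and 14 of 28 T lineage factor genes, and at 8, 7, 6 and 8 of 19 homing genes. The share over all TSSs is not given here. Peaks at IL2, TNF, NR4A1, NR4A2, NFATC1 and TNFSF10 occurred only in the SW rottlerin list among the 4. As a check of the cell type, 6, 5, 6 and 7 of 12 T cell markers had such a peak in the NS DMSO, NS rottlerin, SW DMSO and SW rottlerin lists, whereas none of 8 B cell or 7 erythroid markers did in any list. Of 9 myeloid markers 1 had such a peak in the NS DMSO list only, and 1 of 7 hepatocyte markers had 1 in each of the 4 lists. Each group is therefore named below by its list label, and neither a state of the cells nor an effect of rottlerin is read from the label.

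Accessible regions away from promoters are commonly enhancers, where transcription factors bind short words of sequence and displace nucleosomes. In developing T cells and in T cell leukaemia, E proteins such as TCF3 and TCF12 bind E-boxes, often with partners such as TAL1, beside RUNX and ETS family factors. The E-box CACCTG is also the word of the repressor ZEB1, RUNX factors bind TGTGGT, ETS factors bind words with a GGAA core, and AP-1 and NFAT are the factors that T cell stimulation activates.

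The sequences below show the words on which the comparison of these regions turned. The first 3 are the NS-shared regions with the highest peak scores that held CACCTG (nearest to MXD4, VPS13D and MED9). Then comes 1 of the 2 regions with the most CACCTG, the higher-scoring of them. It lies 9.75 kb upstream of EPB41, in the promoter of the gene annotated as ENSG00000233427. The next are the strongest regions near an E protein gene (TCF4) and near a T lineage factor (LEF1). The last is 1 of the 4 regions with the most ETS words (near LSM4), the highest-scoring of those in introns or intergenic sequence. Only the last was picked after its values were seen. Each is the central 300 bp of the region, plus strand of hg19, and capitals mark CACCTG, the ETS words CAGGAA and CCGGAA, and the RUNX word TGTGGT, read on either strand.
MXD4, chr4:2283691-2283990: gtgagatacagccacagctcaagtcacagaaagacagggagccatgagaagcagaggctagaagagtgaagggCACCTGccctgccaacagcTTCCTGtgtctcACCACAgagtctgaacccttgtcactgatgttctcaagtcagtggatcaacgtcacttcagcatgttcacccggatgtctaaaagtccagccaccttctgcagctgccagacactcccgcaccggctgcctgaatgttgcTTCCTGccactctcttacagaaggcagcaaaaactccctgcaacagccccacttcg
VPS13D, chr1:12270594-12270893: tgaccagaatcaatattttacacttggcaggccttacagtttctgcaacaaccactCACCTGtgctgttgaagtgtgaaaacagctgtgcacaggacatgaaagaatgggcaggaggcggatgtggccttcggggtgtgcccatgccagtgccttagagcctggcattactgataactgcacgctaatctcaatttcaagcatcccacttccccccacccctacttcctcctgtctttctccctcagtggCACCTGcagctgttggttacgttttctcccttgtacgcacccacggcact
MED9, chr17:17307205-17307504: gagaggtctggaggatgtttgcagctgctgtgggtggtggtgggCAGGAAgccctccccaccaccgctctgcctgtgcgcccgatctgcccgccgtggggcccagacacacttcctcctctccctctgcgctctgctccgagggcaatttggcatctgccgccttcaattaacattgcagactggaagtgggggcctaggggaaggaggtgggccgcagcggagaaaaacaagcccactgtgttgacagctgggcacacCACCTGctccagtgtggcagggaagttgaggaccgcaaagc
EPB41, chr1:29203703-29204002: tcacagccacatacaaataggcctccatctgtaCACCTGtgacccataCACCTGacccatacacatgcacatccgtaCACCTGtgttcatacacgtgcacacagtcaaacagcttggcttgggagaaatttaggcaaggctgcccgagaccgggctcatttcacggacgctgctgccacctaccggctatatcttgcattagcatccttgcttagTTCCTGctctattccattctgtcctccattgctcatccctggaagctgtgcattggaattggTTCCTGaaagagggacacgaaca
TCF4, chr18:53354401-53354700: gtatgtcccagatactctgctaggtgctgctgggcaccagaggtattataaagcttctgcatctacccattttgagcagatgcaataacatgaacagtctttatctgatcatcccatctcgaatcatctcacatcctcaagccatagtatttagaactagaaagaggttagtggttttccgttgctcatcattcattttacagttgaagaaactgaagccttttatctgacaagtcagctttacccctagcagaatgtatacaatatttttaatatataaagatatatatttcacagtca
LEF1, chr4:109082162-109082461: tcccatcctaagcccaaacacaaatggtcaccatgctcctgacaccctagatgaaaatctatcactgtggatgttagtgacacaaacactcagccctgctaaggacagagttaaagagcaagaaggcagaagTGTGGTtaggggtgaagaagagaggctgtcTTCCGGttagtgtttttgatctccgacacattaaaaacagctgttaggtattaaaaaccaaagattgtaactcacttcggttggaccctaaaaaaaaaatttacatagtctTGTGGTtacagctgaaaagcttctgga
LSM4, chr19:18429050-18429349: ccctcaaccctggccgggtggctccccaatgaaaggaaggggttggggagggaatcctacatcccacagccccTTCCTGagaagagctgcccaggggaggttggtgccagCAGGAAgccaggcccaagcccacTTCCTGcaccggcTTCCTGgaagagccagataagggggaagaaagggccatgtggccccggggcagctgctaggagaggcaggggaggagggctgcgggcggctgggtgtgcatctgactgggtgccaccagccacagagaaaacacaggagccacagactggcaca
The regions nearest to MXD4, VPS13D and MED9 held 1, 2 and 1 CACCTG, and only the MXD4 region held all 3 kinds of word. The EPB41 region held 3 CACCTG and 2 ETS words. The LEF1 region held no CACCTG but 2 RUNX words and 1 ETS word, the LSM4 region held 4 ETS words, and the TCF4 region held none of these words.

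Compared with the regions of the NS DMSO list alone, the NS-shared regions held ETS words more often and CACCTG less often. Among the 844 regions, 442 held an ETS word in the central 300 bp, 52.4% (49.0 to 55.7%). This compared with 35.0% (33.3 to 36.7%) of the 3187 regions found in the NS DMSO list alone, 54.9% (53.2 to 56.5%) of the 3429 found in the NS rottlerin list alone, and 44.8% of all merged regions. CACCTG was present in 269 NS-shared regions, 31.9% (28.8 to 35.1%), against 39.8% in the NS DMSO list alone, 17.5% in the NS rottlerin list alone and 21.4% of all merged regions. The NS-shared regions thus had an ETS share whose interval overlapped that of the NS rottlerin list alone, and a CACCTG share between those of the lists taken alone.

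**Figure D1:**
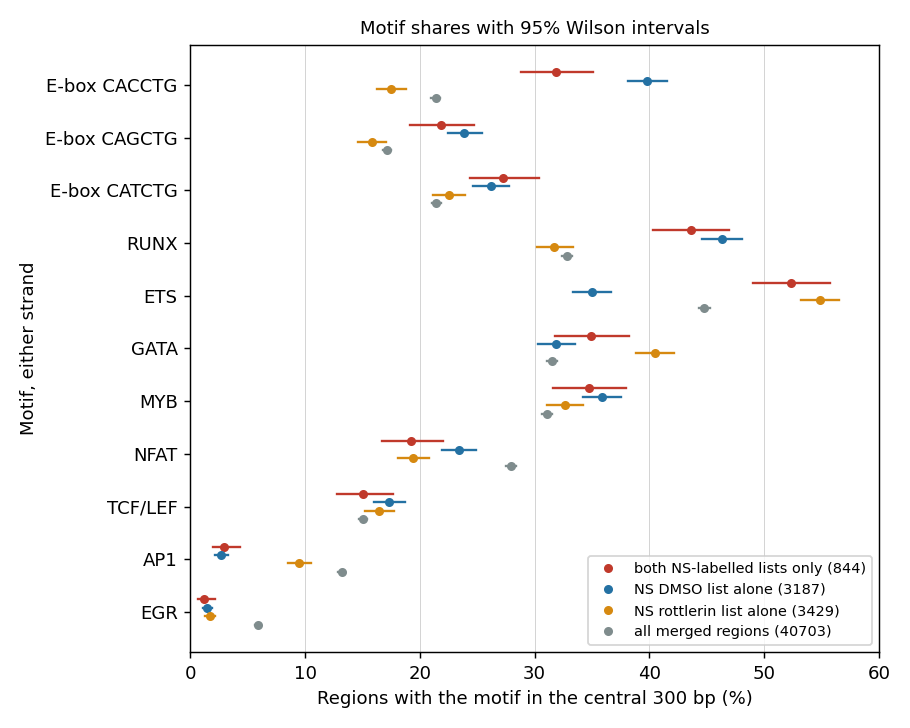
Share of regions with each motif in the central 300 bp, on either strand, for the NS-shared regions, the NS DMSO list alone, the NS rottlerin list alone and all merged regions. Points are percentages and lines are 95% Wilson intervals (counting error only). The NS-shared regions sit at 52.4% for ETS and at 31.9% for CACCTG.

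Both ETS words contributed. CAGGAA occurred in 46.8% of NS-shared regions and 32.5% of regions of the NS DMSO list alone, and CCGGAA in 8.53% and 3.95%. At least 2 ETS words were found in 14.2% of NS-shared regions and 7.69% of regions of the NS DMSO list alone. At least 2 CACCTG went the other way, with 5.09% of NS-shared regions and 10.8% of regions of the NS DMSO list alone. The regions that shared the NS DMSO list with an SW-labelled list rather than with the NS rottlerin list also held fewer ETS words. The ETS share was 31.1% (27.3 to 35.3%) of the 514 shared with SW DMSO only and 36.1% (32.5 to 39.8%) of the 660 shared with SW rottlerin only. Their CACCTG shares were 37.7% (33.7 to 42.0%) and 27.4% (24.2 to 31.0%). A CACCTG share below that of the NS DMSO list alone was therefore not particular to the NS-shared regions.

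The position of the words gave a sharper contrast than their presence. In the central 100 bp of the NS-shared regions, ETS words occurred at 3.16 per kb (2.80 to 3.57), compared with 1.21 per kb in the sequence 300 to 500 bp from the centre, a ratio of 2.61. The ratio was 1.50 in the NS DMSO list alone, 3.36 in the NS rottlerin list alone and 2.06 in all merged regions. CACCTG showed no such concentration in the NS-shared regions, with 1.20 per kb (0.975 to 1.45) at the centre and 1.15 per kb (1.04 to 1.27) in the flanks, a ratio of 1.04. In the NS DMSO list alone the same ratio was 2.14, with 2.23 per kb at the centre. In the NS rottlerin list alone it was 0.575, so that CACCTG was rarer at the centre than in the flanks. The CACCTG ratio was 2.13 in the regions that NS DMSO shared with SW DMSO only, and 1.42 in those shared with SW rottlerin only. The RUNX word was concentrated at the centre in all of these groups, by 4.02 times in the NS-shared regions (3.03 against 0.755 per kb), 4.37 times in the NS DMSO list alone and 2.75 times in the NS rottlerin list alone.

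**Figure D2:**
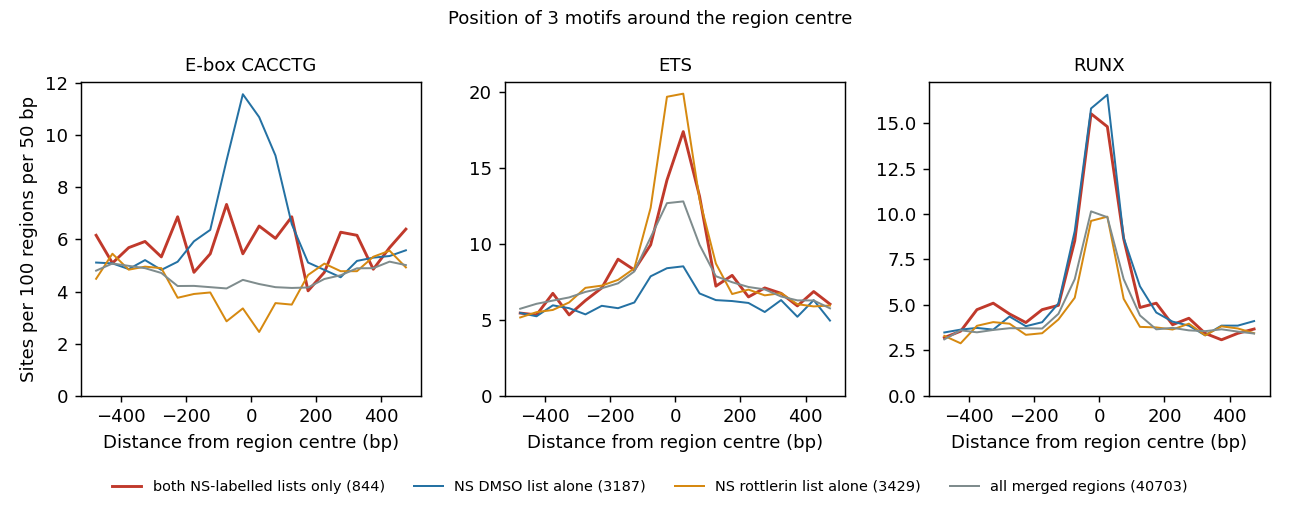
Sites of CACCTG, ETS words and the RUNX word per 100 regions in bins of 50 bp, by distance from the centre of the region in bp, for the same 4 groups. In the NS-shared regions the ETS and RUNX words peak at the centre (2.61 and 4.02 times the flanks), whereas CACCTG is level (1.04 times).

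The differences from the NS DMSO list alone had the same direction within bands of GC content, but for CACCTG the gap was small at low GC. The regions fell into 410 with under 45% GC, 332 with 45% to under 55% and 102 with 55% or more. The ETS share of the NS-shared regions was 47.3%, 57.5% and 55.9% in these bands, above the 30.5%, 39.5% and 43.6% of the NS DMSO list alone in each band, with overlapping intervals only at 55% GC or more. The CACCTG share was 22.2%, 40.7% and 42.2%, below the 25.5%, 56.3% and 62.3% of the NS DMSO list alone in each band and above the 15.3%, 27.4% and 25.0% of all merged regions. Under 45% GC the CACCTG intervals of the NS-shared regions (18.4 to 26.5%) and of the NS DMSO list alone (23.6 to 27.6%) overlapped, and in the middle and upper bands they did not. CACCTG was more frequent at higher scores. From the lowest to the highest of 4 bands of NS DMSO score (10 to 24, 25 to 39, 40 to 59, and 60 or more), CACCTG occurred in 24.0%, 28.0%, 35.0% and 41.6% of NS-shared regions, and in 25.9%, 43.0%, 49.9% and 56.5% of regions of the NS DMSO list alone. ETS words showed no such order, with 46.9%, 57.5%, 53.4% and 48.9% of NS-shared regions.

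TGTGGT was present in 43.6% (40.3 to 47.0%) of NS-shared regions, 46.3% of regions of the NS DMSO list alone, 31.7% of regions of the NS rottlerin list alone and 32.8% of all merged regions. ETS and RUNX words occurred together in 22.3% of NS-shared regions and 15.5% of regions of the NS DMSO list alone. The E-box CAGCTG occurred in 21.8% of NS-shared regions and 17.1% of all merged regions, and the E-box spelled CATCTG in 27.3% and 21.4%. From the lowest to the highest GC band, CATCTG occurred in 24.9%, 29.8% and 28.4% of NS-shared regions. In the same bands it occurred in 23.4%, 27.1% and 12.4% of all merged regions. At least 1 of the 3 E-boxes occurred in 61.3% of NS-shared regions and 48.0% of all merged regions. In the NS DMSO list alone, CAGCTG occurred in 23.9%, CATCTG in 26.2% and at least 1 of the 3 in 63.0%. These E-box shares were therefore not particular to the NS-shared regions. CACCTG, RUNX and ETS words were found together in 7.82% of NS-shared regions, and none of the 3 kinds was found in 18.0%. These shares were 3.19% and 29.0% of all merged regions, and 7.25% and 22.5% of the NS DMSO list alone.

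Words of factors that stimulation activates were less frequent in the NS-shared regions than in all merged regions. AP-1 words (TGACTCA or else TGAGTCA) occurred in 2.96% of NS-shared regions, close to the 2.67% of the NS DMSO list alone, but in 9.48% of regions of the NS rottlerin list alone and 13.2% of all merged regions. The NFAT word TGGAAA was present in 19.2% of NS-shared regions and 27.9% of all merged regions. Its share was 23.4% in the NS DMSO list alone, 19.4% in the NS rottlerin list alone and 20.4% in all 4 lists. The EGR word GTGGGCG was present in 1.18% of NS-shared regions and 5.85% of all merged regions, and the CRE words TGACGTCA and TGACGCA in 0.474% and 2.60%. In the NS DMSO and NS rottlerin lists alone, EGR was at 1.44% and 1.69%, and CRE at 0.722% and 1.02%. Low NFAT, EGR and CRE shares were therefore not particular to the NS-shared regions. GATA words (AGATAA or else TGATAA) occurred in 35.0% of NS-shared regions and 31.5% of all, and MYB words (CAAC or else TAAC, followed by GG or by TG) in 34.7% and 31.1%. TCF/LEF words (CTTTGAA or else CTTTGAT) occurred in 15.0% of both. The motif of NF-kappaB was matched in 1.54% and 2.27%, and that of NRF1 in 0.592% and 1.85%. The motif of CTCF, which insulates chromatin domains, was matched in 25 NS-shared regions (2.96%, and 2.96% of all). Some CTCF matches contain CACCTG, and 14 of these 25 regions held both. ETS words and TGGAAA share the letters GGAA but cannot be the same site. A match describes letters only, and no factor's binding was measured.

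The NS-shared regions were mostly distant from promoters. Their median width was 268 bp (168 to 1801 bp), with 21 of them 1 kb or wider, and they covered 0.304 Mb. Of the 844 NS-shared regions, 481 (57.0%) had their centre in introns, 165 (19.5%) in intergenic sequence and 77 (9.12%) 1 to 10 kb upstream of a TSS. A further 63 (7.46%) lay in other exons, 26 (3.08%) in promoters within 1 kb upstream, 23 (2.73%) in 3′ UTRs and 9 (1.07%) in 5′ UTRs. Introns and intergenic sequence together held 76.5% (73.6 to 79.3%), compared with 70.0% of all merged regions and 80.8% of the NS DMSO list alone. The median distance from the centre to the nearest gene's 5′ end was 13072 bp, against 9088 bp for all merged regions, 15010 bp for the NS DMSO list alone and 735 bp for the 10841 regions found in all 4 lists. It was 39113.5 bp when only protein-coding genes were counted.

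The regions were poor in CpG. Their median GC content was 45% with 3 CpG in the central 300 bp, and 35 of them (4.15%, 3.00 to 5.71%) met a rule for CpG-island-like sequence (GC over 50% and an observed to expected CpG ratio over 0.6). This share was 20.96% of all merged regions, 3.51% of the NS DMSO list alone and 19.1% of the regions shared by the NS DMSO and SW rottlerin lists only. It depended on which peaks were used, being 7.60% when lists were trimmed to equal size and 14.0% when only the higher-scoring 50% of each list was kept. A minority of 39 NS-shared regions lay within 1 kb of a protein-coding TSS, and 19 of these were CpG-island-like. Of the autosomes, chromosome 19 had the lowest share of its merged regions in the set (1.42%, 0.931 to 2.16%). Chromosome 18 had the highest (2.68%, 1.78 to 4.03%), and both intervals included the 2.07% of all merged regions. On the X chromosome 7 of 828 were NS-shared (0.845%, 0.410 to 1.73%).

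Scores and fold enrichments were modest in both lists. The score is 10 times the −log10 q-value, and fold enrichment is the signal over total input. In the NS DMSO list the scores of the NS-shared regions ran from 10 to 177 with a median of 38.5, and in the NS rottlerin list from 11 to 148 with a median of 39. The median of all peaks was 57 in both lists, and 191 (22.6%) and 170 (20.1%) of the NS-shared regions were above it. Only 3 and 1 were above the 90th percentile of their list. The median fold enrichment was 3.71 in the NS DMSO list and 3.69 in the NS rottlerin list. Across the 844 regions the scores in the lists were weakly related (Spearman's rho 0.288, and 0.461 for fold enrichment), compared with 0.680 and 0.666 across the other regions in both NS-labelled lists. Regions of both NS-labelled lists that were also in 1 SW-labelled list had similarly low values, with 0.308 and 0.470 for SW DMSO and 0.255 and 0.461 for SW rottlerin. These correlations are across regions of the same pair of libraries and are descriptive.

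**Figure D3:**
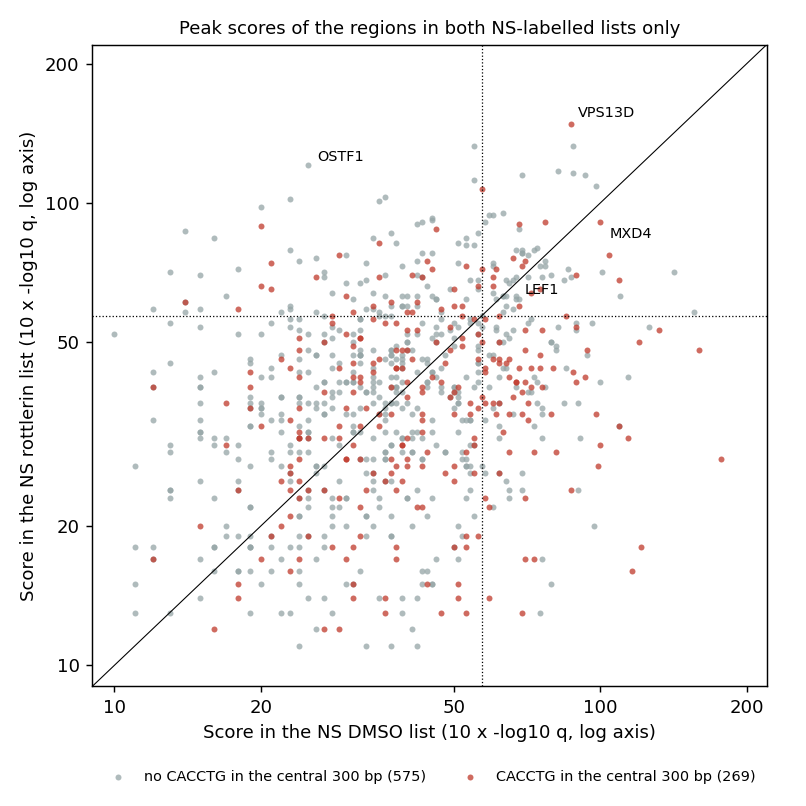
Peak score of each of the 844 NS-shared regions in the NS DMSO list (x axis) and the NS rottlerin list (y axis), both as 10 times −log10 q on log axes. Red points hold CACCTG, dotted lines mark the median of all peaks of each list (57), and the solid line marks equal scores. Most points lie below both medians, and red points are more frequent below the line of equal scores.

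At the edge of the rule, the lowest-scoring NS-shared regions were near NEK9 (scores 10 and 52 in the NS DMSO and NS rottlerin lists), CD81 (42 and 11), EMP1 (11 and 27), ATP23 (11 and 15) and IRX5 (24 and 11). Just outside it were regions near CCDC88C (42 and 34, kept out by an SW rottlerin score of 11) and CELF2 (14 and 12, with an SW DMSO score of 12). A score of 20 or less in at least 1 list was found in 185 NS-shared regions. An equal number, 185 of the 2017 regions with both NS-labelled lists and 1 SW-labelled list, were kept out by an SW-labelled score of 20 or less. Peaks of the 2 lists overlapped reciprocally by a median of 74.9%, and by at least 50% in 677 regions (80.2%). The nearest SW-labelled peak lay a median of 14472 bp away, and within 1 kb for 25 regions (2.96%).

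Neither NS-labelled list dominated among the NS-shared regions. Fold enrichment was higher in the NS DMSO list in 429 of 844, 50.8% (47.5 to 54.2%), against 40.6% of the 12858 other regions in both NS-labelled lists. The median log2 ratio of NS rottlerin over NS DMSO was −0.01 in the NS-shared regions (quartiles −0.18 and 0.15) and 0.05 in the others. This share moved with the number of peaks used, to 33.1% with lists trimmed to equal size. It was 66.6% among the 338 regions of both NS-labelled lists that were also in the SW DMSO list only, and 37.8% among the 1679 that were also in the SW rottlerin list only.

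The balance between the lists differed with the words the NS-shared regions held. Of the 269 with CACCTG, 162 had the higher fold enrichment in the NS DMSO list, 60.2% (54.3 to 65.9%), compared with 267 of the 575 without it, 46.4% (42.4 to 50.5%). Their median scores were 43 and 37 in the NS DMSO list and 39 and 40 in the NS rottlerin list. ETS words went in the opposite direction, with 46.8% (42.2 to 51.5%) of the 442 that held one and 55.2% (50.3 to 60.01%) of the 402 that did not. For the RUNX word the shares were 55.2% (50.1 to 60.2%) with and 47.5% (43.0 to 52.0%) without. The intervals overlapped for ETS and RUNX and did not overlap for CACCTG.

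**Figure D4:**
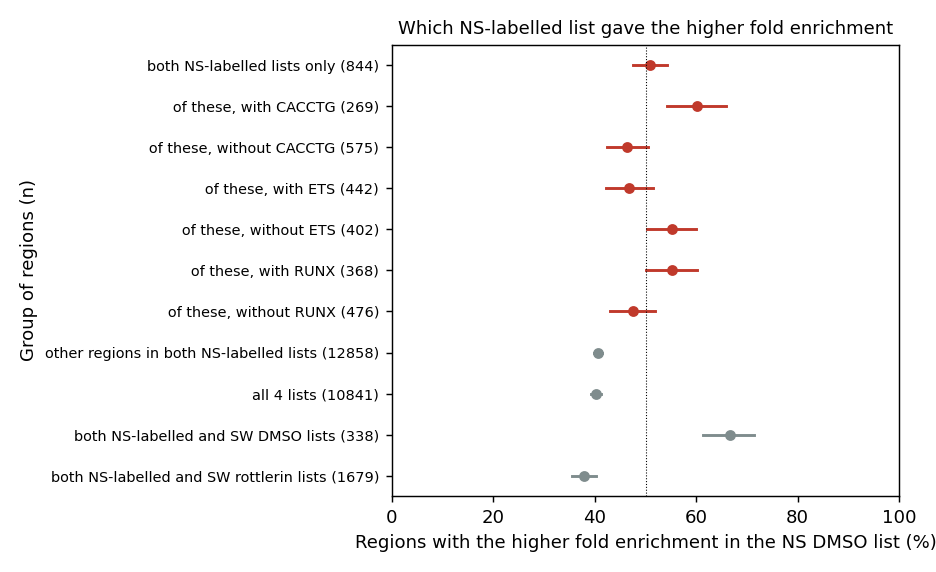
Share of regions, in percent, whose fold enrichment was higher in the NS DMSO list than in the NS rottlerin list, for the NS-shared regions, for those with and without each word, and for other regions in both NS-labelled lists (number of regions in parentheses). Points are percentages, lines are 95% Wilson intervals, and the dotted line marks 50%. NS-shared regions with CACCTG are at 60.2% and those without it at 46.4%.

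The 10 strongest NS-shared regions, ranked by the lower of their scores, lay mostly far from promoters. The strongest was at chr6:158935061-158935571, 22.2 kb upstream of TMEM181 in intergenic sequence, with scores of 98 in the NS DMSO list and 109 in the NS rottlerin list. An intronic region 25.8 kb upstream of the annotated start of UBE3A, the gene of a ubiquitin ligase, scored 93 and 115. The region 20.005 kb upstream of MXD4, which encodes a MAX partner that represses transcription, scored 100 and 91. A region 19.3 kb upstream of VPS13D, a lipid transfer protein gene, had the highest NS rottlerin score of the set (87 and 148). Regions nearest to MED9, a subunit of Mediator (104 and 77), GASK1A (82 and 117), IGSF11, an adhesion molecule (77 and 91), ACOT7, an acyl-CoA thioesterase (77 and 75), and the gene annotated as ENSG00000249209 (88 and 133) were 5.13 kb or more from the TSS. The MED9 region was 73.0 kb away and the IGSF11 region 999 kb. CCDC138 was the exception, with a region 0.0380 kb upstream of its TSS in a promoter with 33 CpG (88 and 116). Of these 10 regions, 7 held an ETS word and 4 held CACCTG, beside 52.4% and 31.9% of all NS-shared regions. With so few regions, no difference from the whole set is read from these counts.

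The regions with the most unequal fold enrichment on the side of NS rottlerin had OSTF1, PYGO1 and CDKAL1 as their nearest protein-coding genes. They lay 59.4, 2.10 and 466 kb from the TSS. They scored 25, 20 and 14 in the NS DMSO list and 121, 98 and 87 in the NS rottlerin list, with fold ratios of 1.89, 1.71 and 1.70. On the side of NS DMSO were regions nearest to TENT4B and GSDMC, 30.95 and 370.6 kb from the TSS. They scored 116 and 121 in the NS DMSO list and 16 and 18 in the NS rottlerin list, with fold ratios of 0.542 and 0.547. The regions nearest to TENT4B and GSDMC held CACCTG, and none of those nearest to OSTF1, PYGO1 and CDKAL1 did. These regions were picked for their ratios, so this is a description. A log2 ratio beyond 0.5 in either direction occurred in 47 NS-shared regions (5.57%) and in 7.77% of the other regions in both lists.

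Within 50 kb of a protein-coding TSS lay 492 of the 844 regions (58.3%). The share farther away than 50 kb was 41.7% (38.4 to 45.1%). It was 36.1% of all merged regions and 46.1% of the NS DMSO list alone, so closeness to genes was not a trait of the set. Of 20136 protein-coding genes, 936 (4.65%) had an NS-shared region within 50 kb, of which 891 had 1, 42 had 2 and 3 had 3. The genes with 3 were CNR2, FUCA1 and BID. CNR2, which encodes a cannabinoid receptor of immune cells, and its neighbour FUCA1, a lysosomal fucosidase gene, shared the same regions. These were a pair of intronic regions 16.7 and 15.5 kb downstream of the CNR2 TSS, with scores of 89 and 70, and of 56 and 43, and its promoter, 0.0800 kb upstream, with scores of 40 and 27. A further region 44.9 kb downstream of the CNR2 TSS was in all 4 lists, with scores of 97, 114, 113 and 104 in the NS DMSO, NS rottlerin, SW DMSO and SW rottlerin lists. At BID, which encodes a pro-apoptotic BCL2 family protein, 1 intronic region 11.1 kb downstream scored 84 and 37, and a pair of regions 4.91 and 5.82 kb upstream scored 22 and 13, and 50 and 40. All 6 of these regions scored higher in the NS DMSO list.

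The lists of T cell genes are set beside the 4.65% of all protein-coding genes and the 2.07% of all merged regions, as a description. Of 18 genes of receptor recombination and thymocytes, 5 (27.8%, 12.5 to 50.9%) had 1 within 50 kb, and the regions made up 5 of the 71 merged regions around these genes (7.04%, 3.05 to 15.4%). At DNTT, which encodes terminal deoxynucleotidyl transferase, a region at chr10:98059285-98059578, 4.73 kb upstream, scored 59 and 40. A further peak starting 2.22 kb downstream was present in 3 lists, with scores of 65, 78 and 21 in NS DMSO, NS rottlerin and SW DMSO, and the SW rottlerin list had no peak within 50 kb of the DNTT TSS. CD1A, a lipid antigen-presenting molecule of cortical thymocytes, had a region 7.58 kb upstream with 2 CACCTG and scores of 31 and 39, and this region was also the 1 counted for CD1C. A neighbouring region closer to the CD1A TSS was in all 4 lists, with scores of 184, 160, 144 and 116. ADA, the adenosine deaminase gene, had an intronic region 41.5 kb downstream (23 and 56), and ARPP21 had 2 intronic regions, 26.9 kb (18 and 28) and 16.9 kb (27 and 12) downstream.

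Of 19 homing and adhesion genes, 4 (21.1%, 8.51 to 43.3%) had NS-shared regions nearby, which were 5 of 123 merged regions (4.07%, 1.75 to 9.16%). CXCR4, a chemokine receptor gene, had 1 at 10.6 kb upstream with CACCTG (44 and 29). ITGA4, the integrin alpha 4 gene, had intergenic regions 16.1 kb upstream with CACCTG (62 and 45) and 12.3 kb upstream (31 and 50). Its TSS had a peak in all 4 lists, with scores of 74, 109, 47 and 56. ITGAL, which encodes the alpha chain of LFA-1, had 1 in an intron 46.8 kb downstream, nearest to ZNF768, with 2 ETS words and scores of 62 and 50.

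**Figure D5:**
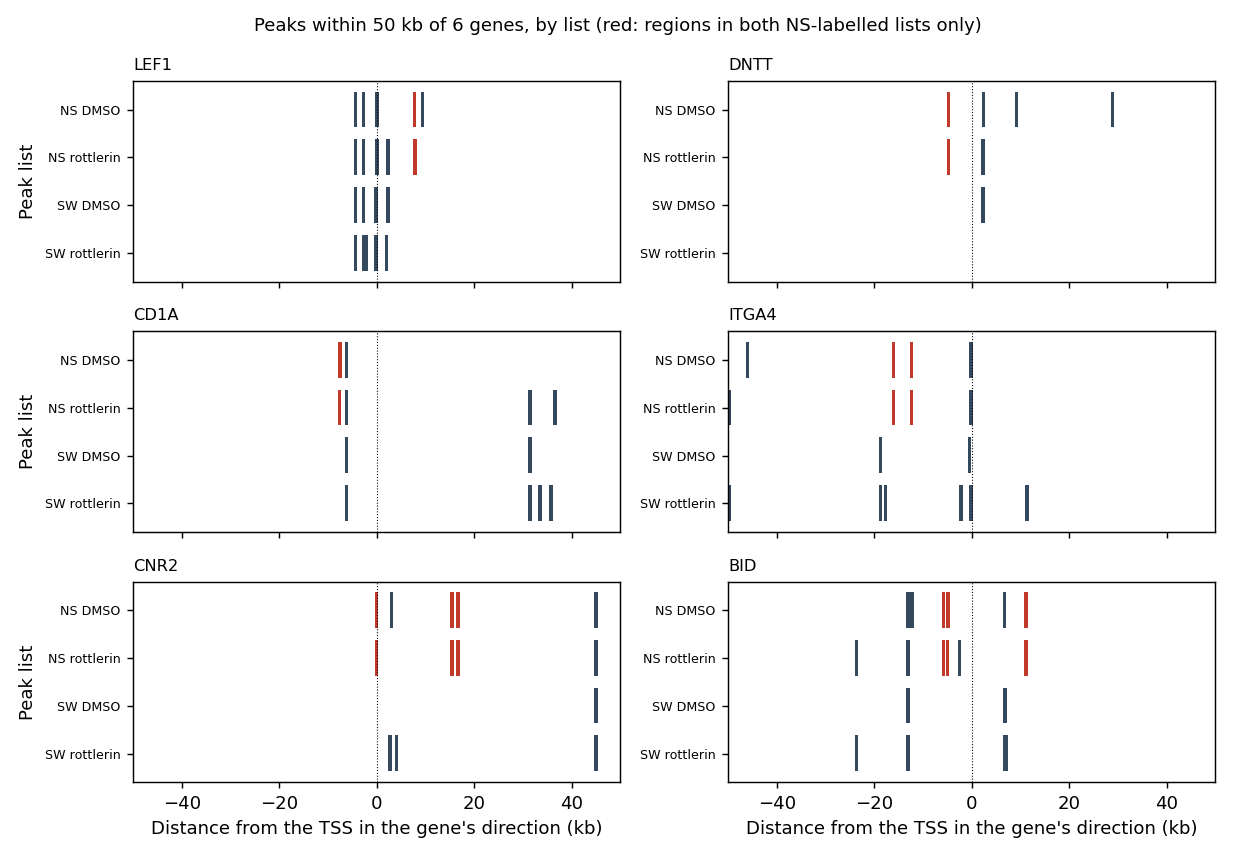
Peaks of the 4 lists within 50 kb of the TSS of LEF1, DNTT, CD1A, ITGA4, CNR2 and BID, by distance from the TSS in kb in the direction of the gene, with peaks under 0.7 kb drawn 0.7 kb wide. Red bars are NS-shared regions and dark bars are other peaks. LEF1, CD1A, ITGA4, CNR2 and BID also have a region with a peak in all 4 lists, and DNTT has no peak in the SW rottlerin list.

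T lineage transcription factors had NS-shared regions near 3 of 28 genes, which were 3 of 150 merged regions (2.00%). LEF1, a nuclear partner of the Wnt pathway in T cell development, had an intronic region at chr4:109082181-109082442, 7.80 kb downstream, with scores of 67 and 62. The LEF1 TSS itself had a peak in all 4 lists, with scores of 66, 76, 56 and 44. IKZF3, the Aiolos gene, had an intronic region 44.8 kb downstream with 2 RUNX words (55 and 112), and MYB had 1 in an intron 14.3 kb downstream (51 and 37). Among 17 E protein, ID and other E-box factor genes, TCF4 had 1, in an intron 22.5 kb upstream of the annotated start (66 and 53), which was the only merged region within 50 kb of the TCF4 TSS. Of 25 Notch pathway genes, NOTCH1 had 1 with low scores (18 and 24), 40.1 kb downstream and nearest to SEC16A.

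For genes of receptor signalling and of the activation response the counts were low, and the intervals included the 2.07% of all merged regions. None of 25 genes of the T cell receptor complex and its proximal signalling had an NS-shared region within 50 kb, although 166 merged regions lay there (0%, 0 to 2.26%). None of 16 protein kinase C and RasGRP genes had 1 among 56 regions (0%, 0 to 6.42%). Of the 38 activation-induced genes, only BIRC3, an inhibitor of apoptosis, had 1, at 10.5 kb upstream (35 and 69), among 230 merged regions (0.435%, 0.0768 to 2.42%). None of 12 T cell, 8 B cell, 9 myeloid or 7 erythroid markers had 1, and of 7 hepatocyte markers APOA1 did, with scores of 12 and 34. These lists were small, and a gene with more regions nearby has more chances to have an NS-shared region.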

How the data were processed

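Peak lists of 4 of the 9 FAIRE-seq samples were analysed, with 1 library per list, and the other 5 samples, which include the total input, were not analysed here. The submitters' processing notes name cutadapt, Bowtie2, Picard, MACS2, HTSeq and hg19, without versions. The authors called broad peaks against total input and deposited, per peak, a score, a fold enrichment, a −log10 p-value and a −log10 q-value. The deposited score was 10 times the −log10 q-value, cut to a whole number, for all but 3 peaks. Peaks were kept up to a q-value of 0.0983, so absence from a list means no peak at that limit. Read counts are not part of these lists, and depth is therefore unknown.

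Lists were matched to samples by the labels. Peaks on chromosomes 1 to 22, X and Y were merged across the lists (overlap of 1 bp or touching), and merged regions with both NS-labelled lists and neither SW-labelled list were kept. Where a list had several peaks in a region, the highest was used. The centre of each region was annotated with GENCODE release 44 on GRCh37, the assembly of hg19, with untranslated exons taking precedence over other exons, these over introns, and introns over promoters (1 kb upstream), upstream sequence (10 kb) and intergenic sequence. Distances were measured to the annotated 5′ end of genes. Of 15 motifs, sites were counted on both strands of the central 300 bp of reference sequence. Python 3.11.15, pandas 2.3.3, scipy 1.17.1, pysam 0.24.0 and samtools 1.23.1 were used. Merging, motif counting and annotation were checked on simulated data, and all of 2814 planted regions were recovered.

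The genes named were those nearest to the 10 regions with the highest lower score, the genes with 3 or more regions within 50 kb, those of 8 gene lists with a region within 50 kb, and those nearest to the 3 highest and 3 lowest ratios of fold enrichment, and some genes that this rule names are not reported here. The lists of marker genes were tabulated in the same way. The members and lists were chosen with earlier results of these data known. The comparison with the NS rottlerin list alone, the positions of the words, their split by list strength, the alternatives for ETS and RUNX words and the LSM4 sequence were added after the data were seen.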

Additional observations from a re-analysis of the deposited data

How the results depend on the processing

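The 8 values that describe the NS-shared regions (their number, annotation, distance, composition, balance between the lists and shares of CACCTG, ETS and RUNX words) were recomputed under 13 alternative settings, which gave 52 values. Of these, 36 stayed within the counting interval of the reported value (or within 1.5 times the number of regions) and 16 moved. With lists trimmed to equal size (18977 peaks), CACCTG fell to 25.9% of regions, the share stronger in the NS DMSO list to 33.1%, and CpG-island-like regions rose to 7.60%. With the higher-scoring 50% of each list, 365 regions were left, with 71.8% in introns or intergenic sequence, 27.1% with CACCTG, a median distance of 10147 bp and 14.0% CpG-island-like. In the central 500 bp, which holds more sequence, CACCTG, ETS and RUNX words occurred in 43.96%, 64.0% and 53.0%, and in the whole region ETS and RUNX words in 57.9% and 49.6%. The intron and intergenic share was 71.1% with promoters called first and 83.3% with protein-coding genes only, and the distance to protein-coding TSSs was 39113.5 bp. For the choice of peaks, the cause was not tested. The ETS share of the NS-shared regions stayed between 52.4% and 54.7% under every choice of peaks tried. The comparison groups were not recomputed under these choices, so whether the ETS difference from them held was not tested.

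No paired analysis was possible because each list came from 1 library. Without replicates or read counts, a missing peak cannot be told apart from a peak just under the calling limit, and the labels do not settle which cell state each list came from.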
